A study of Mus musculus with 9 samples.

Results

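The 8 genes *Nfatc1*, *Nfatc2*, *Nfatc3*, *Prdm1*, *Irf8*, *Bcl6*, *Id2* and *Spi1* were followed through RANKL-induced osteoclast differentiation and UD treatment. They were found by their symbols in a table of 56691 genes, each symbol matching 1 row, and all 8 passed the filter on low values that left 11995 genes for testing. The cells were RAW264.7, an established mouse macrophage line that forms osteoclast-like cells when given RANKL, the cytokine that drives osteoclast formation. Bulk RNA was sequenced from 3 groups of 3 cultures, all collected after 3 days. The control cultures were untreated, the RANKL cultures received RANKL, and the RANKL + UD cultures received RANKL together with uridine (UD), a pyrimidine nucleoside. No culture received UD alone, and every culture was the same cell line, so the spread between replicates is that of cultures of 1 line.

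Osteoclasts form when RANKL signalling and calcium signals activate NFAT proteins, which the phosphatase calcineurin releases into the nucleus. NFATc1, encoded by *Nfatc1*, is the member of the family that amplifies its own gene and switches on the osteoclast genes, while *Nfatc2* and *Nfatc3* encode related NFAT proteins. In the resting macrophage precursor this programme is held back by repressors, among them IRF8 and BCL6, the zinc finger protein encoded by *Bcl6*. BLIMP1, the product of *Prdm1*, is itself a repressor and is known to silence *Irf8* and *Bcl6* as osteoclasts form, so it acts as a repressor of repressors. ID2 lacks a DNA-binding domain and holds E proteins away from DNA, and *Spi1* encodes PU.1, the factor that both macrophages and osteoclasts need.

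The start regions of *Irf8*, *Bcl6* and *Prdm1* are shown because these are the genes of a repressor and its known target genes within this set. Each sequence is the 250 bases before an annotated start site, 5′ to 3′ on the gene's own strand, from RefSeq on GRCm38.p6, and none of these bases lies in an exon of the GRCm38 annotation. Capitals mark matches on either strand to GGAAA (the NFAT core), the PRDM1 and IRF type motif of 10 bases, GAGGAAG (a PU.1 type motif) and TTCNNNGAA (a STAT and BCL6 type motif). The windows are chr8:120736108-120736357 on the plus strand for *Irf8*, chr16:23988853-23989102 on the minus strand for *Bcl6* and chr10:44458749-44458998 on the minus strand for *Prdm1*.
Irf8: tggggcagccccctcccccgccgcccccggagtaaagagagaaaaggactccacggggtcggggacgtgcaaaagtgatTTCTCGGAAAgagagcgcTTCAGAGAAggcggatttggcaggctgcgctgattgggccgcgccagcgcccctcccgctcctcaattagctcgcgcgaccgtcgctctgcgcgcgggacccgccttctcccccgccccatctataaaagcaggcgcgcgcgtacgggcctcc
Bcl6: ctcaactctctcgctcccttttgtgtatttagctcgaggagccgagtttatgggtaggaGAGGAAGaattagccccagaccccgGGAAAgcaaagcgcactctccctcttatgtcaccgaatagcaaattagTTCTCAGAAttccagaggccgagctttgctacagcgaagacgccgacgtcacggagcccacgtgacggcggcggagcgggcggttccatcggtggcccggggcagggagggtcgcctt
Prdm1: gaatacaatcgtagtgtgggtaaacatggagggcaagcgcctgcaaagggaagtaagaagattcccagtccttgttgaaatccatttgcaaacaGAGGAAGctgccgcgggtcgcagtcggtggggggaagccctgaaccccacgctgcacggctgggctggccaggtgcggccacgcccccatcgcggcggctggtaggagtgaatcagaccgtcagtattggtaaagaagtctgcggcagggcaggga

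Counting from the start site, with -1 the base just before it, the *Irf8* window held TTCNNNGAA at -171 to -163 and at -153 to -145, and the earlier match overlapped an NFAT core at -166 to -162. The *Bcl6* window held GAGGAAG at -191 to -185, an NFAT core at -166 to -162 and TTCNNNGAA at -118 to -110. In the *Prdm1* window the match was GAGGAAG at -156 to -150. *Irf8* and *Bcl6* each have a further annotated start site, whose window is not shown and holds other matches. That of *Irf8* (chr8:120738389-120738638) held 2 NFAT cores and 0 TTCNNNGAA, and that of *Bcl6* (chr16:23981284-23981533) held 3 of each and 0 GAGGAAG. The 10-base PRDM1 and IRF type motif was in none of the 10 windows of the 6 genes with an entry, which says only that these letters are not in these bases. Among 32851 windows of the same length, 55.6% held GGAAA, 10.6% held GAGGAAG, 7.02% held TTCNNNGAA and 0.941% held the PRDM1 and IRF type motif, and the E-box CANNTG, which is not capitalised above, was in 66.2%. A match to GGAAA is thus common in windows of this length.

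The deposited table places *Nfatc1* (ENSMUSG00000033016) on the minus strand of chr18:80649420-80756286 and *Nfatc2* (ENSMUSG00000027544) on the minus strand of chr2:168318330-168443577. *Nfatc3* (ENSMUSG00000031902) lies on the plus strand of chr8:106785472-106857169 and *Irf8* (ENSMUSG00000041515) on the plus strand of chr8:121463097-121483433. *Prdm1* (ENSMUSG00000038151) is on the minus strand of chr10:44313173-44404497, and *Bcl6* (ENSMUSG00000022508) is on the minus strand of chr16:23783802-23807602. *Id2* (ENSMUSG00000020644) is on the minus strand of chr12:25143798-25147139, and *Spi1* (ENSMUSG00000002111) is on the plus strand of chr2:90912735-90946101. These are the coordinates as deposited. The submitters' processing notes name mm10, but 1435 of 52073 genes shared with a GRCm38 annotation, and 0 of these 8, have the same coordinates there, so the build of the table is not settled and no sequence was read with them. In the table's own pathway annotation, *Nfatc1*, *Nfatc2* and *Spi1*, 3 of the 8, were in the KEGG pathway of osteoclast differentiation. In its gene ontology annotation, 5 of the 8 were in negative regulation of transcription. *Nfatc1*, *Nfatc3* and *Bcl6* overlap genes on the opposite strand, whose highest FPKM in any library was 0.87 for Gm50211 at *Nfatc1*, 0.19 for *Esrp2* and 0.69 for an unnamed RNA gene (ENSMUSG00002076384) at *Nfatc3*, and 0 for Gm37419 at *Bcl6*. *Bcl6* also overlaps an unnamed gene on its own strand (ENSMUSG00000120947), at no more than 0.29 FPKM. Whether strand was used in counting is not given in the sources used here.

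The libraries held 15951800 to 19746862 counts each (median 19182637), and replicate libraries differed by more than counting noise in 9 of 9 pairs. Macrophage markers were present in every library. Summed over 7 of 7 markers, which include *Adgre1*, *Lyz2* and *Csf1r*, their FPKM was 9392 to 9982 in control, 2527 to 2770 in RANKL and 2203 to 2337 in RANKL + UD. *Lyz2*, the lysozyme gene, made up most of that sum, at 7999.7 ± 261 FPKM in control and 1431 ± 82.9 in RANKL. *Cd68*, a lysosomal membrane protein gene, went the other way, from 549.1 ± 43.4 FPKM in control to 782.0 ± 41.3 in RANKL and 643.5 ± 33.2 in RANKL + UD, and *Adgre1* was at 59.4 ± 3.08, 10.1 ± 0.610 and 12.6 ± 0.939. Osteoclast markers summed to 46.9 to 50.1, 2641 to 2844 and 1666 to 1703 FPKM over 9 genes, of which *Calcr*, the calcitonin receptor, was listed at 0 in every control library and reached at most 0.49 FPKM in RANKL. Markers of dendritic cells, neutrophils, T cells, B cells and stromal cells summed to at most 1.44 FPKM per list and library. In bulk RNA, fewer cells of a type and less RNA of a gene per cell cannot be told apart, and this holds for each difference below.

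All 8 genes passed the test between RANKL and control, and they split into 2 opposite groups. *Nfatc1*, *Prdm1*, *Id2* and *Spi1* were higher in RANKL than in control, and *Irf8*, *Nfatc2*, *Bcl6* and *Nfatc3* were lower, although the call on *Nfatc3* was lost under 8 of 18 alternatives. Against this background, 57.6% of all tested genes passed the same test (edgeR's quasi-likelihood test, Benjamini-Hochberg adjusted p under 0.05), 27.3% as higher and 30.2% as lower. With a fold change over 1.5 as well, 4 of the 8 were higher and 2 lower, where 24.9% of all genes passed, 10.8% as higher and 14.1% as lower. The control and RANKL libraries did not overlap in FPKM for any of the 8, 4 with RANKL above and 4 with RANKL below, against 61.7% of all tested genes (22.9% above and 38.8% below). *Prdm1*, near 0 in control, had passed the filter on low values only through the libraries with RANKL. Its rise over control, counted here and below, was thus set in part by the filter.

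**Figure D1:**
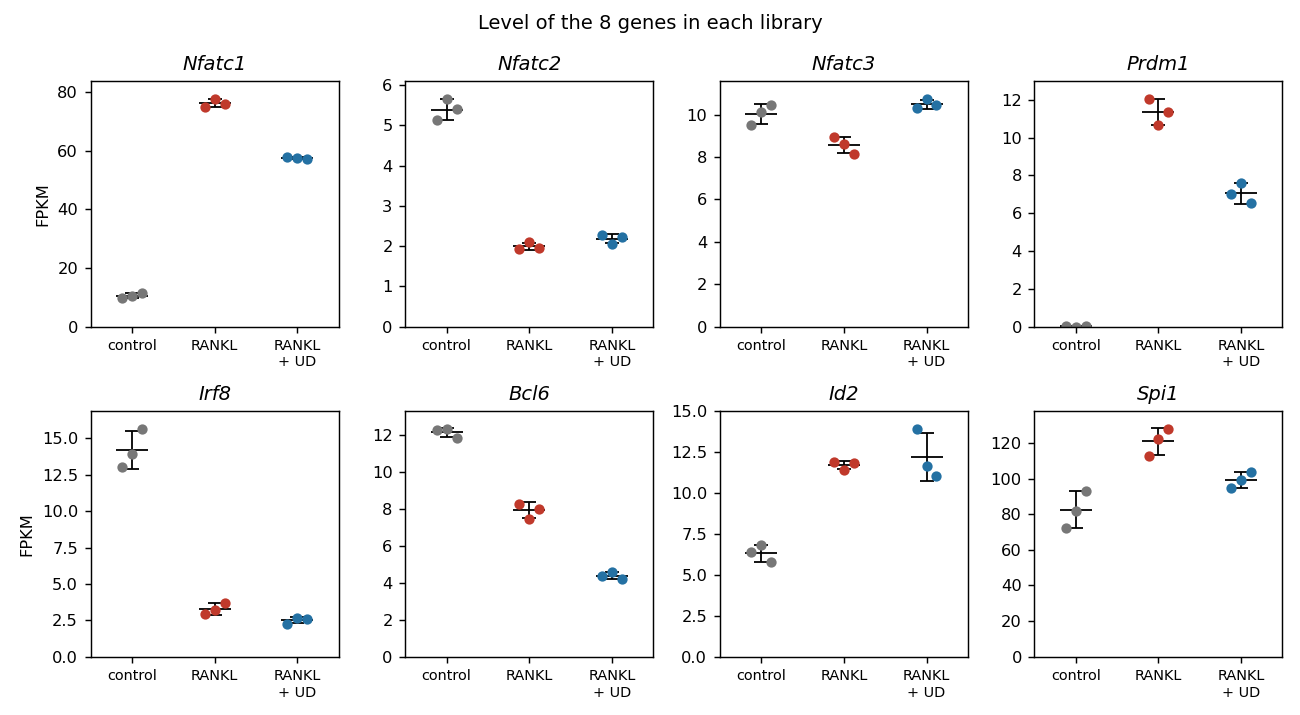
FPKM of the 8 genes in each of 9 libraries; points are libraries, the long bar is the mean and the error bar the SD of 3 libraries, and each panel starts at 0. *Nfatc1* and *Prdm1* rose from control to RANKL and were lower again in RANKL + UD, while *Irf8* and *Bcl6* were lower in RANKL and lower still in RANKL + UD.

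*Nfatc1*, the master regulator of the osteoclast programme, stood at 9.77, 10.3 and 11.5 FPKM (a read count divided by exon length and by library total) in the 3 control libraries and at 74.9, 77.5 and 76.0 in RANKL. The lowest RANKL library was thus several times the highest control library. The fitted difference was 7.70-fold, a log2 fold change of 2.94 ± 0.06 (SE, edgeR adjusted p = 2.89e-20). In RANKL + UD the libraries were at 57.7, 57.4 and 57.2 FPKM, below every RANKL library and far above every control library. The gene fell by 0.49 ± 0.05 on the log2 scale from RANKL to RANKL + UD (95% interval -0.60 to -0.39, edgeR adjusted p = 1.38e-07) and was still 5.47-fold above control.

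The other NFAT genes did not follow *Nfatc1*. *Nfatc2*, which encodes an NFAT protein already present in precursors, was at 5.13, 5.65 and 5.40 FPKM in control, at 1.92, 2.09 and 1.96 in RANKL, and at 2.27, 2.06 and 2.23 in RANKL + UD. Every control library was above every other library, and the RANKL and RANKL + UD libraries overlapped. It fell by 1.35 ± 0.08 on the log2 scale with RANKL (edgeR adjusted p = 3.69e-12). Between RANKL + UD and RANKL the log2 difference was 0.05, with a 95% interval of -0.12 to 0.22 (edgeR adjusted p = 0.667).

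*Nfatc3* moved little. Its libraries were at 9.51, 10.1 and 10.5 FPKM in control, 8.93, 8.60 and 8.15 in RANKL, and 10.3, 10.7 and 10.5 in RANKL + UD, so that RANKL lay lowest and the other groups overlapped. The log2 difference of RANKL from control was -0.14 ± 0.05 (edgeR adjusted p = 0.0279), and that call was lost when control replicate 2 or 3 or RANKL replicate 2 or 3 was left out (adjusted p = 0.0691, 0.0937, 0.0618 and 0.0968, with a range of 0.001 to 0.103 over 18 alternatives). From RANKL to RANKL + UD *Nfatc3* rose by 0.21 ± 0.05 on the log2 scale (edgeR adjusted p = 0.00373), and it was the 1 gene of the 8 that was higher with UD. Against control, RANKL + UD differed by a log2 of 0.07 with a 95% interval of -0.04 to 0.18 (edgeR adjusted p = 0.309).

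Summed FPKM, which is per length and so can be compared between genes, showed how the make-up of the family shifted. Over the 5 genes that also include *Nfatc4* and *Nfat5*, an NFAT-like gene of the response to salt stress that does not depend on calcineurin, the sum was 71.4 ± 3.21 FPKM in control, 138.9 ± 9.09 in RANKL and 136.6 ± 1.43 in RANKL + UD (SD, n = 3). *Nfatc1* held 13.5%, 13.9% and 16.9% of it in the control libraries, 51.8%, 53.8% and 59.1% in RANKL and 41.9%, 42.0% and 42.4% in RANKL + UD. These ranges do not overlap, and *Nfatc1* went from the gene with a minor share to the one with the highest share in RANKL. *Nfat5* held 63.5% ± 3.58, 37.4% ± 3.98 and 48.6% ± 0.429, and so was again above *Nfatc1* in RANKL + UD. Its own level was 45.4 ± 4.42, 52.2 ± 8.69 and 66.3 ± 1.28 FPKM, rising by 0.26 on the log2 scale from RANKL to RANKL + UD (edgeR adjusted p = 0.0192). *Nfatc4* stayed at or under 0.20 FPKM in all 9 libraries. Among *Nfatc1*, *Nfatc2* and *Nfatc3* alone, *Nfatc1* made up 40.5% ± 1.32 of the summed FPKM in control, 87.8% ± 0.459 in RANKL and 81.9% ± 0.176 in RANKL + UD. These shares are a description, with no test.

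**Figure D2:**
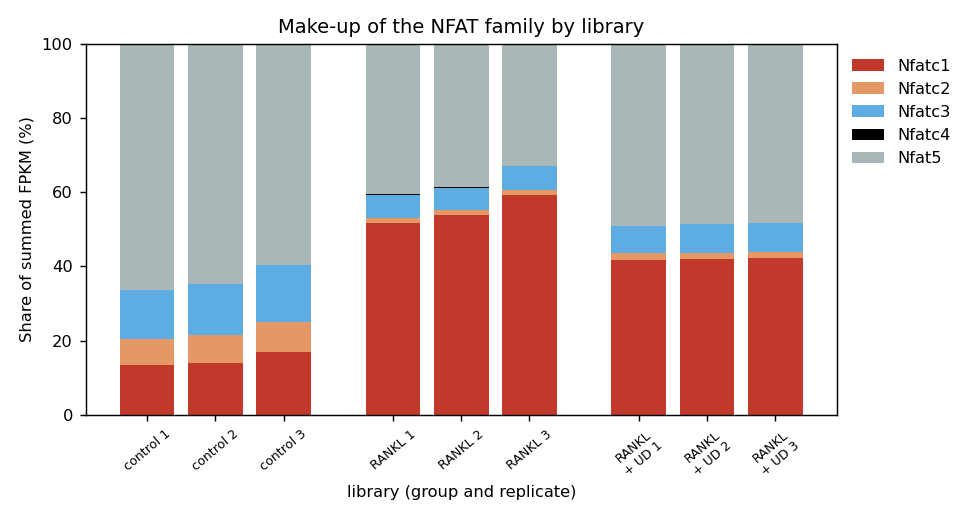
Share of the summed FPKM of the 5 NFAT genes held by each gene, as stacked bars, 1 bar per library, in percent. *Nfatc1* held 13.5% to 16.9% in control, 51.8% to 59.1% in RANKL and 41.9% to 42.4% in RANKL + UD.

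*Prdm1* went from silent to expressed. The control libraries held 3, 0 and 1 counts of it (0.03, 0.00 and 0.01 FPKM), whereas the RANKL libraries held 1324, 1148 and 1217 counts (12.0, 10.7 and 11.4 FPKM). Pooled over the 3 libraries of each group this is 3689 against 4 counts, a ratio of 832 once divided by the library totals. Its exact 95% interval of 325 to 3057 covers counting error only. The fitted log2 fold change was 9.66 ± 0.22 (SE, edgeR adjusted p = 4.56e-19). The pooled ratio became 2262 (exact 95% interval 406 to 89374, 1 control count) without control replicate 1 and 519.6 (203 to 1908, 4 control counts) without control replicate 2. With RANKL + UD the libraries were at 7.04, 7.60 and 6.52 FPKM, all below the lowest RANKL library. *Prdm1* fell by 0.77 ± 0.09 on the log2 scale from RANKL to RANKL + UD, to 0.585 of its RANKL level (95% interval -0.96 to -0.59, edgeR adjusted p = 6.51e-07). Its pooled ratio to control was then 516 (exact 95% interval 201 to 1896, counting error only), or 1403 and 322 without control replicate 1 or 2.

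*Irf8*, the interferon regulatory factor that maintains macrophage identity and restrains NFATc1, went the opposite way under RANKL. It was at 13.0, 13.95 and 15.6 FPKM in control, 2.92, 3.24 and 3.68 in RANKL, and 2.27, 2.64 and 2.58 in RANKL + UD. The 3 groups did not overlap, and RANKL + UD was the lowest. It fell by 2.03 ± 0.09 on the log2 scale with RANKL, a 4.07-fold lower level (edgeR adjusted p = 2.62e-14). It fell by a further 0.48 ± 0.10 from RANKL to RANKL + UD (95% interval -0.69 to -0.28, edgeR adjusted p = 0.000508), and ended 5.69-fold below control.

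*Bcl6* gave the same order with different sizes. Its FPKM was 12.3, 12.3 and 11.9 in control, 8.29, 7.45 and 8.02 in RANKL, and 4.36, 4.59 and 4.21 in RANKL + UD, with no overlap between any 2 groups. Its log2 fold change with RANKL was -0.53 ± 0.06, a 1.44-fold lower level (edgeR adjusted p = 3.60e-07). The further difference between RANKL + UD and RANKL was -0.94 ± 0.07 (95% interval -1.08 to -0.80, edgeR adjusted p = 1.08e-09). *Bcl6* in RANKL + UD was therefore 1.92-fold below RANKL and 2.77-fold below control, and of the 8 genes it had the fitted change with UD that was greatest in size.

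*Id2* and *Spi1* both rose with RANKL but differed under UD. *Id2*, an inhibitor of E proteins that is known to restrain osteoclast formation, was at 6.40, 6.81 and 5.79 FPKM in control, 11.9, 11.4 and 11.8 in RANKL, and 13.9, 11.7 and 11.1 in RANKL + UD. It rose 1.96-fold with RANKL (log2 0.97 ± 0.10, edgeR adjusted p = 4.46e-08). The RANKL and RANKL + UD libraries overlapped, with RANKL + UD replicate 1 the highest of the 9. The log2 difference between these groups was -0.03 with a 95% interval of -0.23 to 0.17 (edgeR adjusted p = 0.866).

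*Spi1*, the gene with the highest FPKM of the 8 in all groups, was at 72.5, 81.9 and 93.2 FPKM in control, 112.7, 122.5 and 127.6 in RANKL, and 94.96, 99.0 and 103.9 in RANKL + UD. The RANKL + UD libraries lay between the other groups, close to the highest control library. The gene rose 1.56-fold with RANKL (log2 0.64 ± 0.07, edgeR adjusted p = 6.73e-08). It fell by 0.37 ± 0.07 on the log2 scale from RANKL to RANKL + UD (95% interval -0.51 to -0.23, edgeR adjusted p = 0.000183), and this call was lost with limma on log2(FPKM + 0.1) (adjusted p = 0.0530, against 9.83e-11 to 0.0530 over 18 alternatives). It remained 1.20-fold above control (edgeR adjusted p = 0.00235).

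Counted together, 5 of the 8 genes were lower and 1 higher in RANKL + UD than in RANKL, and *Nfatc2* and *Id2* did not pass the test. Of all tested genes, 38.8% passed it, 18.6% as higher and 20.2% as lower. With a fold change over 1.5 as well, *Prdm1* and *Bcl6* passed as lower and none as higher, 2 of 8 against 9.86% of all genes (4.38% as higher and 5.49% as lower). The FPKM of 5 genes lay below and that of 1 above every RANKL library, and of all tested genes 51.7% did not overlap (34.1% above and 17.6% below). FPKM is scaled by library totals only, whereas the test also used TMM factors, 0.959 to 0.963 in RANKL and 1.01 to 1.03 in RANKL + UD. Shares by FPKM and by the test are therefore not on the same scale, and this holds for RANKL against control as well. Against control, RANKL + UD left 4 of the 8 higher and 3 lower, where 54% of all genes passed (26.7% as higher and 27.3% as lower), and *Nfatc3* was the gene that did not. The comparisons with RANKL share the RANKL libraries and those with control share the control libraries, so they are not independent of each other.

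**Figure D3:**
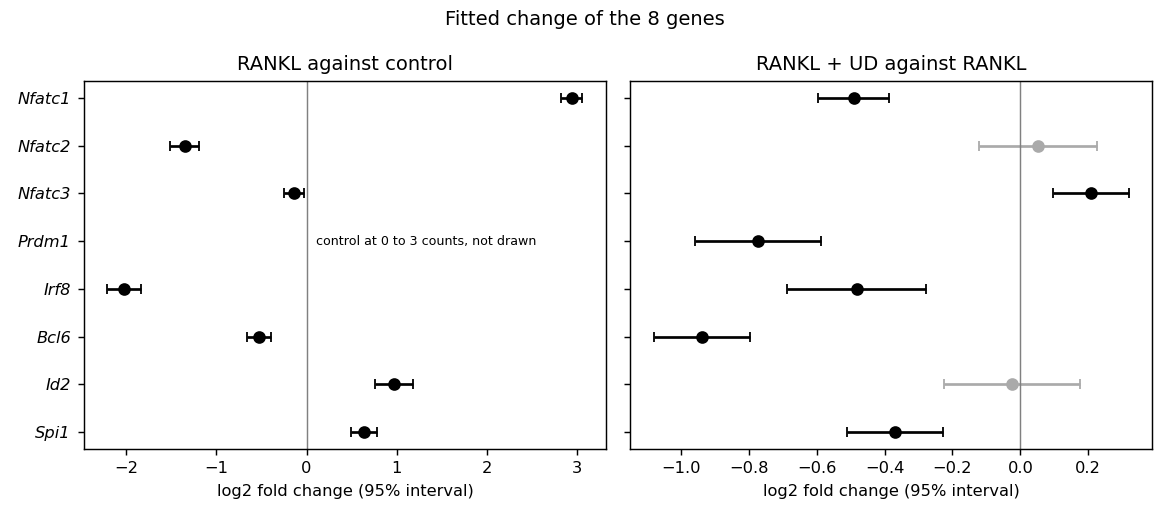
Fitted log2 fold change (x axis) of the 8 genes with its 95% interval from edgeR, for RANKL against control and for RANKL + UD against RANKL; black points passed at an adjusted p under 0.05, grey points did not, and the x axes differ in range. *Prdm1* is not drawn against control, where it had 0 to 3 counts, and *Nfatc2* and *Id2* are the grey points at 0.05 and -0.03 with UD.

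The balance between *Nfatc1* and its repressors was also taken within each library, where the scaling of the library cancels. *Nfatc1* was 0.751, 0.737 and 0.736 times *Irf8* in control, 25.6, 23.9 and 20.6 times in RANKL, and 25.4, 21.7 and 22.2 times in RANKL + UD. Both genes were lower with UD, and their ratio in RANKL + UD overlapped that in RANKL (log2 difference -0.02, two-sided exact permutation p = 0.9). The ratio to *Bcl6* was 0.797, 0.836 and 0.970 in control, 9.03, 10.4 and 9.47 in RANKL, and 13.2, 12.5 and 13.6 in RANKL + UD. It was thus higher in each RANKL + UD library than in any RANKL library, although *Nfatc1* itself was lower. The ratio to *Id2* was 1.53, 1.51 and 1.98, then 6.27, 6.77 and 6.43, then 4.15, 4.92 and 5.17, lower in each RANKL + UD library than in any RANKL library. For *Bcl6* and *Id2* the log2 differences of 0.45 and -0.46 between RANKL + UD and RANKL had an exact permutation p of 0.1, the smallest that 3 against 3 libraries can give. Over the 9 ratio tests made, the adjusted p was 0.1125 for 8 and 0.9 for the *Irf8* ratio between RANKL + UD and RANKL, so none could pass.

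**Figure D4:**
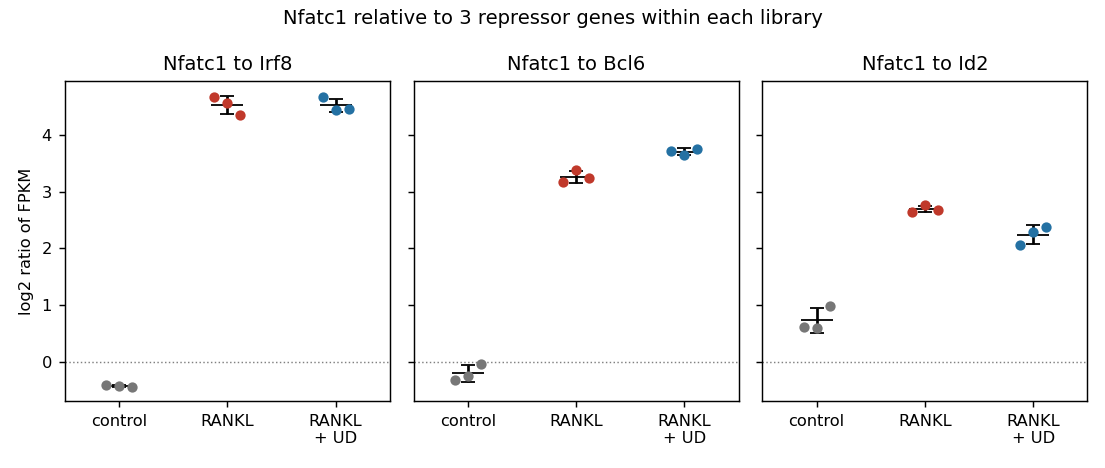
Log2 of the ratio of *Nfatc1* FPKM to *Irf8*, *Bcl6* and *Id2* FPKM within each library; points are libraries, the long bar is the mean and the error bar the SD of 3 libraries, and 0 is an equal level. The ratio to *Bcl6* was 12.5 to 13.6 in RANKL + UD against 9.03 to 10.4 in RANKL, and that to *Irf8* overlapped.

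The order of the levels changed with RANKL. In control it ran *Spi1*, *Irf8*, *Bcl6*, *Nfatc1*, *Nfatc3*, *Id2*, *Nfatc2* and *Prdm1* from high to low FPKM, and the libraries of *Nfatc1* and *Nfatc3* overlapped. In RANKL it ran *Spi1*, *Nfatc1*, *Id2*, *Prdm1*, *Nfatc3*, *Bcl6*, *Irf8* and *Nfatc2*, with overlap of *Id2* with *Prdm1* and of *Nfatc3* with *Bcl6*. In RANKL + UD *Nfatc3* stood above *Prdm1*, and the overlapping neighbours were *Irf8* and *Nfatc2* at the foot of the order.

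The genes known to act with these 8 were counted in 8 lists, beside a median log2 fold change over all tested genes of -0.03 for RANKL against control and 0.005 for RANKL + UD against RANKL. Of all tested genes 57.6% passed between RANKL and control, 27.3% as higher and 30.2% as lower. Between RANKL + UD and RANKL 38.8% passed, 18.6% as higher and 20.2% as lower. The counts in each list are to be read beside these shares. All values in the following paragraphs are log2 fold changes unless FPKM is named. In the list of the NFAT family and calcineurin, 9 of 11 genes were tested. With RANKL 5 rose and 1 fell (median 0.14, or 0.050 with 3 higher and 1 lower when libraries were scaled by total counts), led by *Rcan1*, a calcineurin inhibitor that NFAT itself induces, at 1.70 (adjusted p = 4.83e-15 from edgeR), and *Ppp3r1*, the regulatory calcineurin subunit, at 0.43. The catalytic subunit gene *Ppp3ca* fell by 0.17. With UD 3 rose and 3 fell (median -0.07, which turned to 0.020 when libraries were scaled by total counts). *Nfat5* and *Cabin1*, a calcineurin inhibitor, rose by 0.26 and 0.25, and *Ppp3cc* and *Ppp3ca*, both catalytic subunits, fell by 0.33 and 0.32. *Rcan1* did not pass between RANKL + UD and RANKL (28.2 ± 1.68 FPKM in RANKL and 27.3 ± 1.33 in RANKL + UD, adjusted p = 0.0930 from edgeR).

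Of 18 inducers and partners of *Nfatc1*, mainly AP-1 and NF-κB genes, 15 were tested. With RANKL 5 rose and 7 fell (median -0.16, or -0.25 scaled by total counts). *Fosl2* and *Jdp2*, an AP-1 factor that osteoclasts need, rose by 3.73 and 3.14, while *Fos* fell by 2.36 from 196.0 ± 5.11 to 35.9 ± 2.61 FPKM. *Fosb* fell from 14.6 ± 0.117 to 0.0833 ± 0.0306 FPKM, but it passed the filter on low values through the control libraries alone. With UD 7 fell and 0 rose (median -0.23, or -0.14 scaled by total counts). *Fos* fell again by 0.81, to 21.8 ± 0.786 FPKM, and *Jund* fell by 0.66, whereas *Fosl2* was at 64.3 ± 2.25 FPKM in RANKL and 65.5 ± 1.41 in RANKL + UD (adjusted p = 0.435 from edgeR).

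NFATc1 target genes moved in the same direction as *Nfatc1* in both comparisons. All 11 tested of 12 rose with RANKL (median 5.35), and *Calcr* was too low to test. *Mmp9*, a secreted gelatinase, went from 0.430 ± 0.128 to 314.3 ± 14.6 FPKM and *Acp5*, the tartrate-resistant acid phosphatase, from 0.910 ± 0.128 to 410.6 ± 27.9 FPKM. With UD all 11 fell (median -0.71), from -1.53 for *Oscar*, a costimulatory receptor, and -1.34 for *Mmp9*. *Acp5* fell by 0.35 (adjusted p = 1.23e-05 from edgeR). Several of the tested genes, *Mmp9*, *Acp5* and *Oscar* among them, were under 1 FPKM on average in control. They passed the filter on low values only through the libraries with RANKL, so their rise was set in part by the filter. A further listed gene passed it through the RANKL group alone, which also bears on its fall with UD. This list shares 9 of its 12 genes with the osteoclast markers whose summed FPKM is given above.

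Most genes listed as other transcriptional repressors of osteoclast formation were lower with RANKL, and most were lower again with UD. With RANKL 10 of 14 tested genes fell and 1 rose (median -0.49), and with UD 9 fell and 0 rose (median -0.33), 6 of them when libraries were scaled by total counts. Between RANKL + UD and control 14 of 14 were lower (median -1.10), where 27.3% of all tested genes were lower (median -0.002). *Klf2* and *Egr2*, which encode zinc finger factors, fell by 1.48 and 1.13 with UD. *Irf4*, the 1 listed gene that rose with RANKL, by 0.44, fell by 1.07 with UD. Its change thus went the way of *Nfatc1* in both comparisons, and whether it acts as a repressor in these cells was not tested. *Id3*, the close relative of *Id2*, fell by 2.05 with RANKL where *Id2* rose, and stood at 0.530 ± 0.0529 FPKM in RANKL and 0.560 ± 0.161 in RANKL + UD (adjusted p = 0.984 from edgeR). *Id3* passed the filter on low values through the control libraries alone.

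Genes of the proteins through which these repressors act were counted as well. Of 12 corepressors of PRDM1 and BCL6, 2 rose and 3 fell with RANKL (median -0.04, or -0.13 with 1 higher and 6 lower when libraries were scaled by total counts) and 1 rose and 1 fell with UD (median -0.01, or 0.077 with 5 higher and 0 lower when libraries were scaled by total counts). With the main scaling, each of these corepressor counts was a smaller share of the list than the matching share of all tested genes. The histone deacetylase gene *Hdac2* rose by 0.39 and *Bcor*, a BCL6 corepressor, by 0.21 with RANKL, while *Tle3* fell by 0.36 and *Sin3a* by 0.15. With UD *Hdac1* rose by 0.23 and *Rcor1* fell by 0.17. Of the 3 E protein genes that ID2 binds, *Tcf12* rose by 0.65 and *Tcf4* fell by 0.54 with RANKL (list median 0.11, or 0.022 scaled by total counts), and 0 of 3 passed between RANKL + UD and RANKL (median -0.07, or 0.014 scaled by total counts).

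Macrophage genes that PU.1 or IRF8 activates fell with RANKL, where *Spi1* rose and *Irf8* fell. All 12 tested of 13 fell (median -1.58), and *Ciita* was too low to test. *Fcgr1*, the high-affinity IgG receptor, fell by 3.90, from 28.3 ± 1.34 to 1.78 ± 0.102 FPKM, and *Adgre1*, a surface receptor gene of mature macrophages, by 2.46, from 59.4 ± 3.08 to 10.1 ± 0.610 FPKM. With UD the list divided, with 4 higher and 7 lower (median -0.30). *Ly86* and *Il18* rose by 0.78 and 0.55, and *Fcgr2b* and *Ctss* fell by 0.84 and 0.54.

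Genes that BCL6 represses in macrophages or B cells also divided. Of 9 genes, which include *Prdm1*, 6 were tested, and 3 rose and 3 fell with RANKL (median 0.03, or -0.057 scaled by total counts). *Myc*, a growth factor-responsive transcription factor, rose by 5.65, from 0.767 ± 0.0551 to 36.3 ± 1.14 FPKM, and fell by 1.46 with UD to 14.0 ± 0.797 FPKM. The chemokine genes *Cxcl10* and *Ccl2* fell by 2.53 and 0.40 with RANKL and rose by 1.26 and 0.98 with UD. With UD 2 of the 6 rose and 4 fell (median -0.65). *Prdm1* and *Myc* were under 1 FPKM in every control library and passed the filter on low values only through the libraries with RANKL. *Cxcl10* passed it through the control libraries. The rises of *Prdm1* and *Myc* and the fall of *Cxcl10* with RANKL were thus set in part by the filter.

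**Figure D5:**
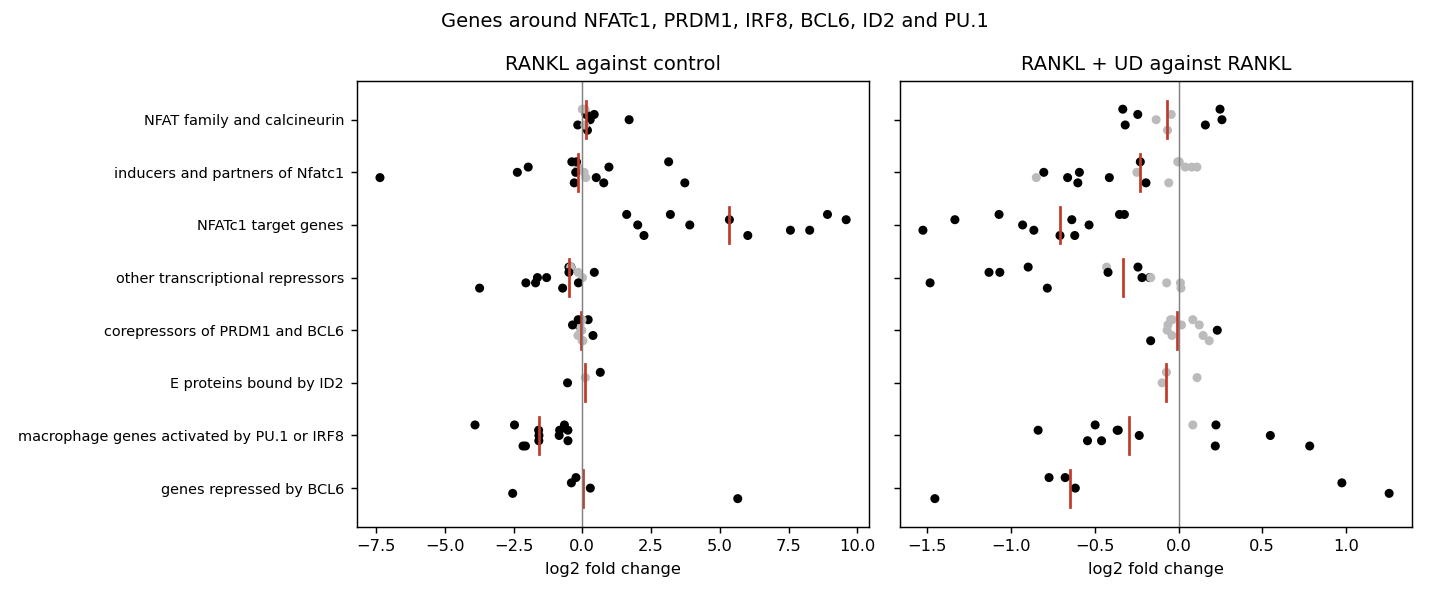
Log2 fold change (x axis) of each tested gene of the 8 lists; black points passed at an edgeR adjusted p under 0.05, grey points did not, and the red bar is the median of the list. The x axes differ in range, and *Prdm1*, at 0 to 3 counts in control, counts in the median but is not drawn against control. Of the NFATc1 target genes, 11 of 11 lie right of 0 with RANKL and left of 0 with UD. Several of them were low in control and passed the filter on low values only through the libraries with RANKL.

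The genes whose log2(FPKM + 1) profile over the 9 libraries lay nearest to *Nfatc1*, each centred on its control mean, were *Fam102a*, *Ank* and *Slc6a8*, with a root-mean-square difference of 0.110, 0.128 and 0.138. *Fam102a* went from 5.98 ± 0.512 FPKM in control to 41.7 ± 1.77 in RANKL and 37.7 ± 0.968 in RANKL + UD. Nearest to *Prdm1* were *Sema7a* at 0.0837, *Rgs16* at 0.169 and *Siglec15* at 0.218. *Sema7a*, a membrane semaphorin gene, was at 0.01 FPKM on average in control, 10.8 ± 0.992 in RANKL and 7.04 ± 0.131 in RANKL + UD, so that it too was near 0 without RANKL. Nearest to *Irf8* were *L1cam*, *Cped1* and *Sqor* at 0.118, 0.124 and 0.133, and *L1cam* went from 11.4 ± 1.61 to 2.14 ± 0.341 and 1.71 ± 0.152 FPKM. These are likenesses of pattern over 9 libraries, and with log2 CPM in place of log2(FPKM + 1) 1, 0 and 0 of the 3 neighbours stayed the same.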

How the data were processed

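RNA from RAW264.7 cultures (3 per group) was made into poly(A)-selected, strand-specific libraries. The authors deposited, for each gene and library, read counts and FPKM values (counts divided by exon length and library total) with GO and KEGG terms; the aligner and counter are not given in the sources used here, and the submitters' processing notes name mm10. Dividing the counts by exon length and library total gave the deposited FPKM. The table names its RANKL columns "Model", the study's word for that group. Genes reaching 1 FPKM in 3 or more libraries were tested on the counts with edgeR 4.0.16 (R 4.3.3), TMM scaling and a quasi-likelihood fit of all 9 libraries. Calls used a Benjamini-Hochberg adjusted p under 0.05 over 11995 genes. DESeq2 1.42.0, limma 3.58.1, other filters and scalings, and each library left out were alternatives; the lists under other scalings were added after seeing the data. The procedure was run on simulated counts with the same dispersion for every gene, a simpler setting than these data. The members and lists were chosen with earlier results of these data known. Named genes were the members, up to 2 that rose and 2 that fell most per list and comparison, the 3 nearest profiles and overlapping genes. A gene that this rule selects from the lists is not reported here. A gene named for 1 comparison may also be given its values in the other. RefSeq (GRCm38.p6) start regions were matched by symbol for 6 of 8 members; *Nfatc1* and *Spi1* had no entry used here.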

Additional observations from a re-analysis of the deposited data

How the results depend on the processing

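Over 18 alternatives for each of the 8 genes and 3 comparisons, results changed side or sign for *Nfatc3* between RANKL and control and for *Id2* and *Spi1* between RANKL + UD and RANKL. The lower level of *Nfatc3* in RANKL no longer passed without a filter on low values (log2 -0.13, adjusted p = 0.103), with RLE size factors (-0.12, 0.0540), with DESeq2 (-0.12, 0.0651) or with the 6 libraries of the comparison alone (-0.12, 0.0988), and leaving out 1 library gave -0.18 to -0.11; the cause was not tested. The log2 difference of *Id2*, which passed under no alternative, turned to 0.060 with total counts, to 0.048 and 0.051 with limma at pseudocounts of 1 and 0.1, and to 0.0099 and 0.042 without RANKL + UD replicate 2 or 3 (range -0.14 to 0.042 with 1 library left out). *Spi1* was at -0.28 (adjusted p = 0.0530) with limma and a pseudocount of 0.1. The log2 ratio of *Nfatc1* to *Irf8* between RANKL + UD and RANKL ranged from -0.10 to 0.054 when 1 library was left out, with 0.028 and 0.013 without RANKL + UD replicate 2 or 3, and 0.054 and 0.0037 without RANKL replicate 1 or 2.

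Of all tested genes, 2233 were higher and 2418 lower in RANKL + UD than in RANKL (48.0% higher), against 3348 and 1709 with total counts (66.2% higher) and 1539 and 1488 lower with limma at pseudocounts of 1 and 0.1. Against control, RANKL gave 3278 higher and 3628 lower (47.5% higher), or 36.9% higher with total counts. List medians that changed sign with total counts were 0.020 (NFAT family and calcineurin), 0.077 (corepressors) and 0.014 (E proteins) for RANKL + UD against RANKL, and -0.057 (genes repressed by BCL6) for RANKL against control. Correlations between the deviations of same-numbered libraries were low (-0.025 to 0.078, 0 of 9 over 0.1). Even so, 5 of 9 libraries correlated best with their own number in both other groups, and *Spi1* FPKM rose with the number in every group. Whether the number marks a shared source of variation was not tested, and the main fit did not take the numbers as pairs. With the number as a block, the edgeR adjusted p between RANKL + UD and RANKL was 2.74e-06 for *Spi1* and 4.85e-05 for *Irf8*. With the replicate number as a block, none of the 24 calls on the 8 genes changed, and the all-gene counts were 3346 higher and 3694 lower for RANKL against control, 2347 and 2518 for RANKL + UD against RANKL, and 3268 and 3334 for RANKL + UD against control. The depth limits *Prdm1* in control, where 3 libraries held 4 counts in all.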
